A study of Arabidopsis thaliana with 35 samples.

Results

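Class III peroxidases, the secretory plant peroxidases, were followed across organs and temperatures in Arabidopsis seedlings. Of 60 listed loci, 44 had a probe set that names 1 gene, among 13355 genes tested. Of the other 16 loci, 5 lay on probe sets that name 2 genes and 11 were not analysed here. Each of the 44 genes had a single probe set, so no choice between probe sets was needed.

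These heme enzymes are secreted to the cell wall and the vacuole. They use hydrogen peroxide to oxidise phenolic compounds, which polymerises lignin and suberin and cross-links wall proteins such as extensins, and this stiffens walls. In another reaction cycle they form reactive oxygen species, which can loosen walls. The family is large, and many of its members are known for transcripts found mainly in roots.

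The seedlings were of the natural accession RRS-7, grown for 5 d at 20 °C on agar medium in cycles of 16 h white light and 8 h dark. At Zeitgeber hour 7 of day 5, plates were moved to 28 °C or stayed at 20 °C, with no other treatment and no mutant. Hypocotyls, cotyledons and roots were dissected 3 h after the shift, at Zeitgeber hour 10, or 24 h after it, at Zeitgeber hour 7 of day 6, so the 2 harvests also differ in age and time of day. The 12 groups held 3 arrays each, except roots at 28 °C for 3 h with 2 arrays, and each array was hybridised with RNA pooled over several harvesting sessions.

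Values are log2 expression values on which a difference of 1 is a doubling, and values of different probe sets were not set against each other. A gene was called higher or lower in a comparison at a limma Benjamini-Hochberg adjusted p under 0.05 over all 13355 genes. The standard error (SE) given beside a log2 difference is that of the same fit of 12 group means to all 35 arrays, with 23 residual degrees of freedom. The files give no detection call, and 13 of the 44 genes had no group mean of 6 or more, so for those a small difference is poorly measured.

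Arrays of 1 group correlated at 0.992 to 0.997 over all genes, and array medians lay between 5.65 and 5.93. The organ labels were checked against marker genes. The light-harvesting genes LHCB4.2 and LHCB4.3, 2 of 14 listed green tissue markers, had mean values per array at 20 °C of 10.54 to 11.52 in cotyledons, 9.13 to 9.62 in hypocotyls and 4.80 to 5.27 in roots. The root hair genes EXPA7, EXPA18 and XTH26, 3 of 21 listed root hair markers, had mean values per array of 7.26 to 7.71 in roots over both temperatures, and between 4.02 and 4.62 in the hypocotyl and cotyledon arrays. PYK10 and LBD16, 2 of 9 listed root markers, were also higher in roots than in either other organ, with PYK10 at a mean of 13.26 in roots, 12.68 in hypocotyls and 11.64 in cotyledons at 20 °C.

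Most measured class III peroxidases were root genes at 20 °C. In roots against cotyledons 30 of the 44 were higher and 6 lower, where 39.1% of all genes were called higher and 37.5% lower. The lower calls there were 10 with values centred on array medians and 13 with values centred on 7 reference genes. In roots against hypocotyls 31 were higher and 5 lower, where 35.9% of all genes were called higher and 24.5% lower. With reference-gene centring these were 28 higher and 13 lower. The median log2 difference over the 44 genes was 2.82 against cotyledons and 1.99 against hypocotyls, and over all genes it was -0.03 and 0.03. In hypocotyls against cotyledons 23 were higher and 8 lower, where 30.2% of all genes were called higher and 36.1% lower. The lower calls were 17 with array-median centring and 12 with reference-gene centring. Defined as an organ with calls above both others, 28 peroxidases, or 63.6%, preferred the root, as 30.4% of all genes did. The hypocotyl was preferred by 3 (6.82%) and by 8.72% of all genes, the cotyledon by 3 (6.82%) and by 26.5%, and none by 10 (22.7%) and by 34.3%. With reference-gene centring, 26 preferred the root and 9 the cotyledon. Of the 7 reference genes, 6 were themselves called higher and 1 lower in roots than in cotyledons.

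**Figure D1:**
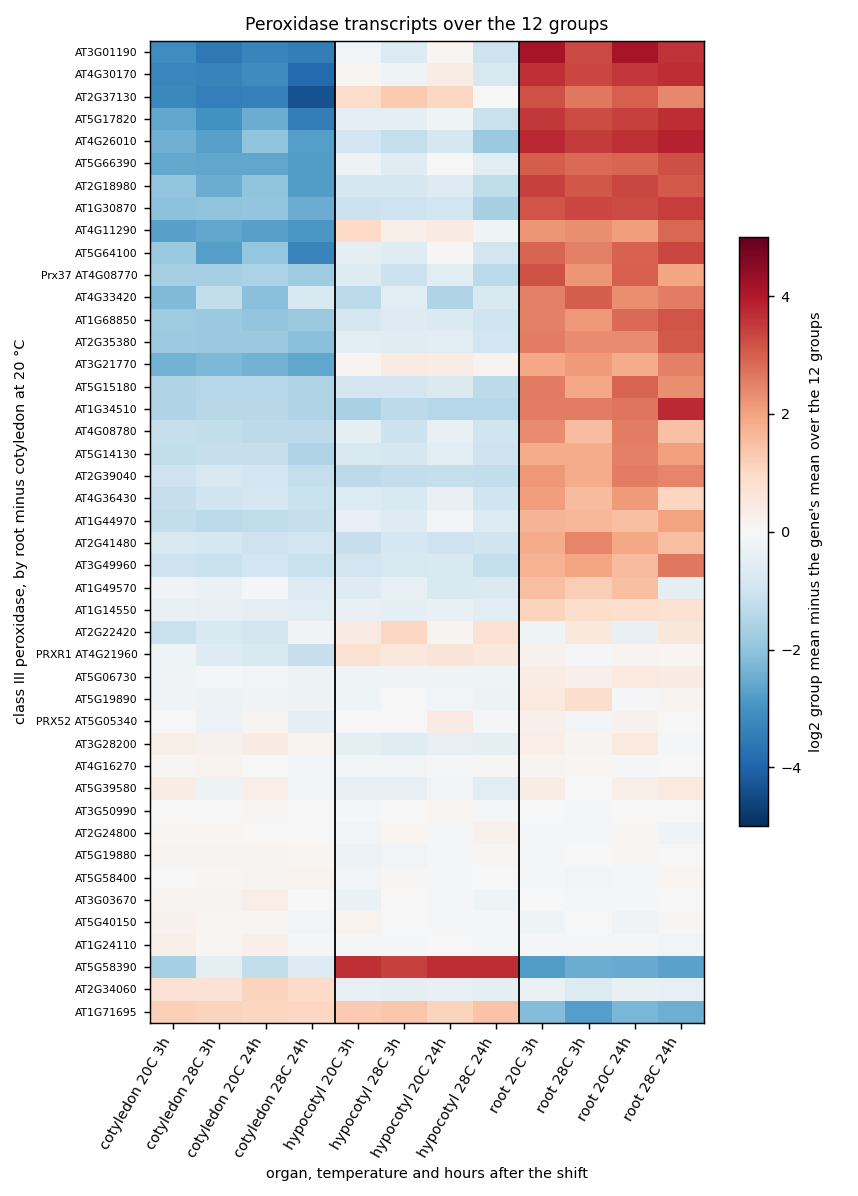
Log2 group mean of each of the 44 peroxidase genes (rows, ordered by root minus cotyledon at 20 °C) in the 12 groups of organ, temperature and hours (columns), as the difference from the gene's own mean over the groups (colour scale). Most rows are red in the 4 root columns, and AT5G58390 is red in the hypocotyl columns.

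The largest measured difference of root from cotyledon was that of AT3G01190. Over the 6 arrays at 20 °C of each organ its values ran from 11.76 to 11.97 in roots, from 7.54 to 7.91 in hypocotyls and from 4.11 to 4.93 in cotyledons. The 3 organs did not overlap. The root exceeded the cotyledon by a log2 difference of 7.32 (SE 0.14, adjusted p = 1.66e-30) and the hypocotyl by 4.14 (SE 0.14, adjusted p = 2.8e-23). Cotyledon values of this and the next genes were low and are not known to lie above background, so the differences from cotyledons may understate the true ones and their order is not established. The root minus cotyledon difference was 6.79 (SE 0.18) for AT4G30170, and it was measured for AT2G37130 at 6.39 (SE 0.16), for AT5G17820 at 5.99 (SE 0.22), for AT4G26010 at 5.93 (SE 0.20) and for PRX72 (AT5G66390) at 5.56 (SE 0.08). From hypocotyl to root the differences were 4.64 (SE 0.20) for AT4G26010 and 4.21 (SE 0.18) for AT1G30870.

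Not all root genes were equally low in both shoot organs. AT2G37130 had values of 8.69 to 9.43 in the 6 hypocotyl arrays at 20 °C against 4.11 to 5.29 in the 6 cotyledon arrays. Its hypocotyls stood above cotyledons by 4.28 (SE 0.16, adjusted p = 6.46e-21), and its roots stood above hypocotyls by 2.11 (SE 0.16). AT4G11290 showed a similar grading, with hypocotyls above cotyledons by 3.41 (SE 0.08) and roots above hypocotyls by 1.45 (SE 0.08). AT1G34510, by contrast, had root values 4.05 (SE 0.11) above cotyledons and 4.14 (SE 0.11) above hypocotyls, and hypocotyl and cotyledon were not called different.

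PRX72 and PRX52 (AT5G05340) are both known for roles in lignin formation in Arabidopsis stems. PRX72 was graded from root to hypocotyl to cotyledon, with log2 differences of 3.11 (SE 0.08) and 2.46 (SE 0.08) between neighbours. PRX52 stayed between 3.98 and 5.67 on all 35 arrays and was called in no organ and no temperature comparison. PER36 (AT3G50990), which acts in seed mucilage release from the seed coat, stayed between 3.68 and 4.15 and was likewise not called in any of them.

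AT5G58390 was the hypocotyl gene of the family. Its values at 20 °C were 10.24, 10.06 and 10.33 in hypocotyls harvested at 3 h and 10.38, 10.01 and 10.33 in those harvested at 24 h. In cotyledons they were 4.41, 5.27 and 4.99 at 3 h and 5.88, 5.34 and 4.77 at 24 h, and in roots they ran from 3.68 to 4.27. Hypocotyls stood far above both other organs, with a log2 difference of 5.12 to cotyledons (SE 0.18, adjusted p = 6.34e-22). Roots were below hypocotyls by -6.33 (SE 0.18, adjusted p = 1.66e-25), which may understate the difference, since the root values are not known to lie above background. AT5G58400, the listed peroxidase next to it on chromosome 5, ran from 3.95 to 4.64 over all 35 arrays and was called in no organ comparison.

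PRXR1 (AT4G21960) was the second of the 3 hypocotyl genes. Its hypocotyls exceeded cotyledons by 1.18 (SE 0.06) and roots lay below hypocotyls by -0.53 (SE 0.06). AT2G22420 was the third, with hypocotyls above cotyledons by 1.3 (SE 0.10) and roots at -0.60 (SE 0.10) against hypocotyls. AT1G71695 was a gene of both shoot organs, with values of 9.56 to 9.98 on the 12 hypocotyl and cotyledon arrays at 20 °C and 6.28 to 6.66 on the 6 root arrays. Its root values were lower by -3.38 (SE 0.07) than cotyledons and by -3.45 (SE 0.07) than hypocotyls.

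The cotyledon genes were AT2G34060, AT1G24110 and AT3G03670. AT2G34060 had values of 6.07 to 6.68 in the 6 cotyledon arrays at 20 °C and 5.03 to 5.33 in the 12 others at 20 °C. Its hypocotyls differed from cotyledons by -1.31 (SE 0.08) and its roots by -1.27 (SE 0.08). The other 2 differed from each other organ by less than 0.5 in size and had no group mean of 6 or more.

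More peroxidase transcripts fell than rose after the warm shift. Of the 44 genes, 32 (72.7%) were called in at least 1 of the 6 comparisons of 28 with 20 °C and 12 in none, where 51.6% of all genes were called in at least 1. Of the 44, 19 (43.2%) were only lower, 7 (15.9%) only higher and 6 (13.6%) lower in one comparison and higher in another. Among all genes 22.9% were only lower, 22.2% only higher and 6.51% both.

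The counts differed between organs and hours. At 3 h, hypocotyls had 3 peroxidases higher and 4 lower (15.9% of the 44, against 14.6% of all genes), cotyledons 2 higher and 3 lower (11.4%, against 22.4%), and roots 2 higher and 8 lower (22.7%, against 10.7%). At 24 h, hypocotyls had 2 higher and 13 lower (34.1%, against 9.67% of all genes), cotyledons 2 higher and 12 lower (31.8%, against 28.5%), and roots 9 higher and 8 lower (38.6%, against 17.7%). By direction, all genes were called higher in 6.99% and lower in 7.65% of cases in hypocotyls at 3 h, 10.3% and 12.1% in cotyledons, and 5.38% and 5.35% in roots. At 24 h they were called higher in 5.08% and lower in 4.58% of cases in hypocotyls, 15% and 13.4% in cotyledons, and 8.39% and 9.31% in roots. The share of peroxidases called was close to that of all genes in hypocotyls at 3 h and in cotyledons at 24 h, and below it in cotyledons at 3 h. The cotyledon count at 24 h rested on 1 array, since without replicate 2 at 20 °C it was 2 higher and 6 lower. The root count at 3 h was 6 without replicate 2 at 28 °C.

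**Figure D2:**
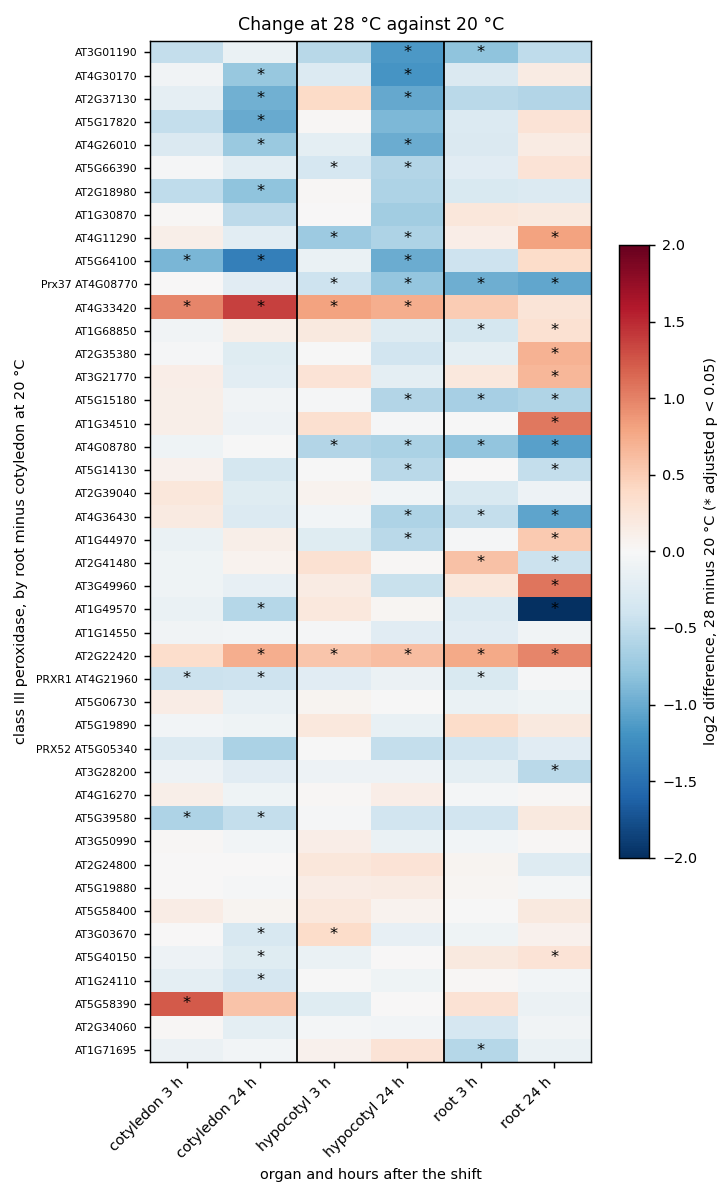
Log2 difference between 28 and 20 °C (colour scale) for the 44 peroxidase genes (rows, ordered by root minus cotyledon at 20 °C) in 6 comparisons of organ and hours (columns), with an asterisk at an adjusted p under 0.05. Blue asterisks gather in the hypocotyl column at 24 h among root-preferring genes, whereas the root column at 24 h holds both colours.

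Prx37 and its chromosomal neighbour AT4G08780 fell together in hypocotyls and roots at both hours. Prx37 (AT4G08770) is known as a gene whose overexpression gives dwarf plants. Its root values at 3 h were 8.99, 9.06 and 8.87 at 20 °C and 8.14 and 7.85 at 28 °C. At 24 h they were 8.99, 8.67 and 8.74 at 20 °C and 7.59, 7.81 and 7.88 at 28 °C. Every warm root array lay below every 20 °C root array of its hour. The log2 differences were -0.97 at 3 h (SE 0.14, adjusted p = 8.84e-06) and -1.04 at 24 h (SE 0.13, adjusted p = 2.19e-07), a fold of 2.05 at 24 h. In hypocotyls Prx37 had values of 5.15, 5.15 and 5.13 at 20 °C and 4.47, 4.96 and 4.73 at 28 °C at 3 h, a difference of -0.42 (SE 0.13, adjusted p = 0.0216). That call was lost without any 1 of 4 of its 6 arrays, with the difference down to -0.30. At 24 h in hypocotyls the difference was -0.78 (SE 0.13, adjusted p = 8.78e-05).

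AT4G08780 moved the same way. Its root values at 24 h were 7.58, 7.52 and 7.42 at 20 °C and 6.50, 6.26 and 6.53 at 28 °C, which do not overlap. The differences were -0.79 (SE 0.13) in roots at 3 h, -1.08 (SE 0.12, adjusted p = 2.03e-08) in roots at 24 h, -0.58 (SE 0.12) in hypocotyls at 3 h and -0.64 (SE 0.12) in hypocotyls at 24 h. In cotyledons, where both genes had values of 3.43 to 4.34 at either temperature, neither was called. How far the pair share sequence was not examined here, so a common signal on the 2 probe sets was not tested.

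AT4G33420 rose in both shoot organs. Its cotyledon values at 24 h were 4.47, 3.99 and 4.15 at 20 °C and 5.49, 5.58 and 5.62 at 28 °C. At 3 h they were 4.03, 4.46 and 3.82 at 20 °C and 5.37, 5.19 and 4.69 at 28 °C. The arrays of the temperatures were apart at both hours, with differences of 1.36 at 24 h (SE 0.15, adjusted p = 1.95e-08) and 0.98 at 3 h (SE 0.15, adjusted p = 7.94e-06). In hypocotyls it rose by 0.80 at 3 h (SE 0.15, adjusted p = 0.000354) and 0.72 at 24 h (SE 0.15, adjusted p = 0.00194). In roots, where its values were 8.55 to 8.97 at 20 °C, the differences were 0.50 at 3 h and 0.25 at 24 h, and neither was called. Both root arrays at 28 °C and 3 h, with 9.31 and 9.37, nevertheless lay above all root arrays at 20 °C. At 24 h the cotyledon change exceeded the root change, with a root minus cotyledon difference of -1.11 (SE 0.22, adjusted p = 0.000248).

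AT2G22420 was higher at 28 °C in 5 of the 6 comparisons. Its root values at 24 h were 4.65, 4.25 and 4.25 at 20 °C and 5.34, 5.19 and 5.55 at 28 °C, a difference of 0.97 (SE 0.14, adjusted p = 4.48e-06). In roots at 3 h it rose by 0.76 (SE 0.16), in cotyledons at 24 h by 0.73 (SE 0.14), in hypocotyls at 24 h by 0.62 (SE 0.14) and in hypocotyls at 3 h by 0.56 (SE 0.14). The cotyledon difference at 3 h, 0.35, was not called. The gene had no group mean of 6 or more, yet the arrays of the temperatures did not overlap in any of the 5 called comparisons.

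**Figure D3:**
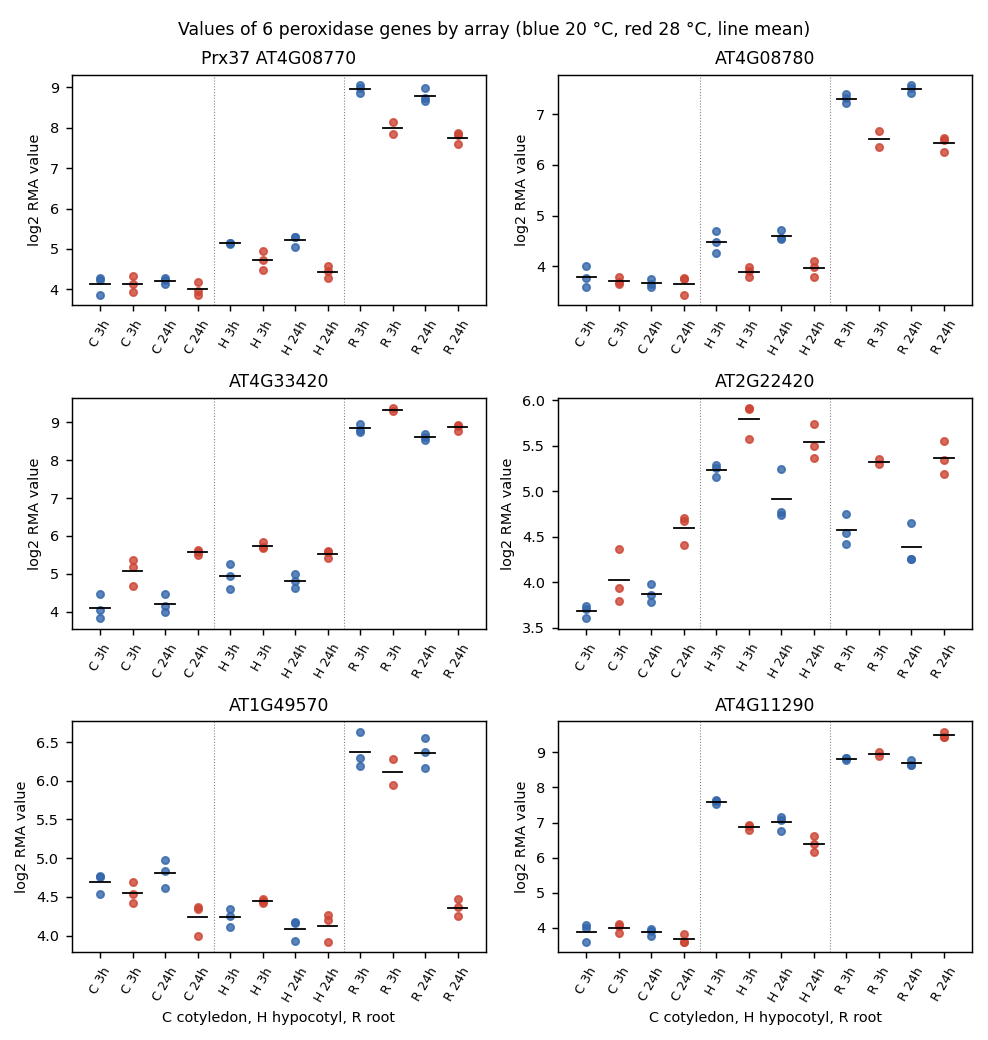
Log2 values on every array (points, blue at 20 °C and red at 28 °C, with a line at each group mean) for 6 peroxidase genes in cotyledons (C), hypocotyls (H) and roots (R) at 3 and 24 h. AT4G33420 sits higher at 28 °C in C and H, Prx37 and AT4G08780 sit lower in H and R, and AT1G49570 sits lower in R at 24 h.

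In hypocotyls at 24 h the 13 peroxidases that fell were all root-preferring genes. The largest falls were those of AT4G30170, AT3G01190 and AT2G37130. AT4G30170 had values of 7.78, 8.23 and 7.91 at 20 °C and 6.69, 6.35 and 7.35 at 28 °C, a difference of -1.18 (SE 0.25, adjusted p = 0.0021). AT3G01190 had 7.83, 7.91 and 7.76 at 20 °C and 6.45, 6.35 and 7.27 at 28 °C, a difference of -1.15 (SE 0.20, adjusted p = 0.000159). AT2G37130 had 9.14, 9.43 and 8.83 at 20 °C and 7.93, 8.06 and 8.30 at 28 °C, a difference of -1.03 (SE 0.23, adjusted p = 0.00292). In all 3 genes the arrays of the temperatures were apart, and replicate 3 at 28 °C was the nearest to the 20 °C arrays.

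AT4G26010 differed by -0.99 (SE 0.28, adjusted p = 0.019), but its arrays overlapped, with 6.18 in replicate 3 at 28 °C against 5.88 in replicate 2 at 20 °C, and the call was lost without any 1 of 4 arrays. AT5G64100 differed by -0.99 (SE 0.27, adjusted p = 0.0182), a call also lost without any 1 of 4 arrays. Smaller falls were those of AT4G11290 with -0.62 (SE 0.11), AT4G36430 with -0.61 (SE 0.13), AT5G15180 with -0.59 (SE 0.11) and PRX72 with -0.58 (SE 0.11, adjusted p = 0.000815). PRX72 values were 6.21, 6.49 and 6.36 at 20 °C and 5.59, 5.62 and 6.10 at 28 °C, without overlap. AT1G44970 and AT5G14130 each fell by 0.54 on the log2 scale.

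Organ preference and warm change were taken from different harvests here, so that no array entered both differences. The calls of preference and of warm change came from the same fit to all arrays. They shared each gene's variance estimate, so the counts of calls were not independent of each other. Of the 28 peroxidases that preferred the root at the 3 h harvest, 13 were lower and 1 higher in hypocotyls at 24 h, with a median difference of -0.56. Among all 3582 genes that preferred the root at that harvest, 9.18% were lower and 3.85% higher, with a median of -0.05. Across the 44 genes the hypocotyl change at 24 h had a Pearson correlation of -0.71 with the root minus cotyledon difference and of -0.55 with the root minus hypocotyl difference. Across all 13355 genes the same correlations were -0.22 and -0.25. These correlations are across genes of the same arrays, which are not independent replicates. The 44 include the 13 genes without a group mean of 6 or more, whose low signal may hold both differences near 0. Their part in the correlations was not tested. In roots at 24 h, 7 of the 28 were higher and 7 lower, with a median of 0.16, where 12.7% of the 3582 genes were higher and 19.3% lower, with a median of -0.06. There the correlations were 0.05 and -0.03 across the 44 genes and -0.07 and -0.07 across all genes. In cotyledons at 24 h, 7 of the 28 were lower and 1 higher (13.3% and 19.2% of the 3582). The correlations were -0.31 and -0.32, and across all genes 0.11 and 0.01. With preference from the 24 h harvest, the 3 h correlations were -0.23 and -0.06 in hypocotyls and -0.21 and -0.32 in cotyledons. In roots they were -0.26 and -0.26, with 6 of 27 root-preferring peroxidases lower and 1 higher (11.2% and 7.05% of all such genes). Over all genes the 3 h values were -0.14 to -0.04.

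**Figure D4:**
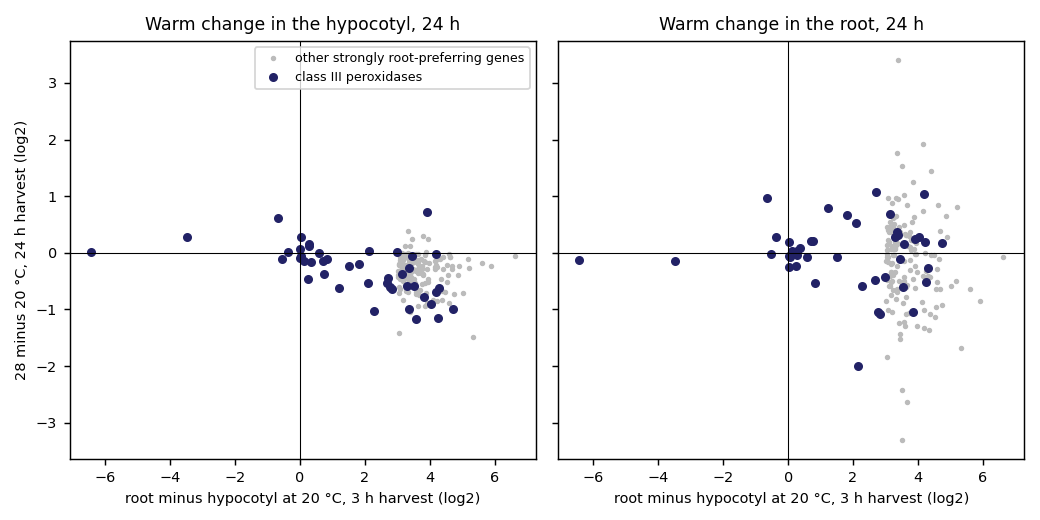
Log2 difference of root minus hypocotyl at 20 °C in the 3 h harvest (horizontal) against the log2 difference of 28 minus 20 °C in the 24 h harvest (vertical), in hypocotyls (left) and roots (right), for the 44 peroxidase genes (dark) and 150 other strongly root-preferring genes (grey). In hypocotyls most peroxidases at the right lie below 0, as do most grey points, and in roots both spread to either side of 0.

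Other root genes moved with this result. A group chosen after the peroxidase values were seen held 150 other genes whose root values at 20 °C exceeded both shoot organs by 3 or more on the log2 scale at the 3 h harvest. In hypocotyls at 24 h, 46 of them were lower and 0 higher by the limma test, a share of 30.7% lower, with a median of -0.29. At an unadjusted p under 0.05 the counts were 77 lower and 1 higher. The 15 peroxidases past the same limit had 7 lower and 1 higher, with a median of -0.62. The mean value over the 150 genes was 5.05, 5.06 and 5.02 on the hypocotyl arrays at 20 °C and 4.65, 4.56 and 4.90 on those at 28 °C. The mean over the 15 peroxidases was 5.96, 5.94 and 6.00 at 20 °C and 5.27, 5.15 and 5.78 at 28 °C. Both means were lower on all 3 warm arrays, and in both replicate 3 was the least lowered. At 3 h the means of 133 such genes overlapped in hypocotyls, with 4.80 to 4.88 at 20 °C and 4.65 to 4.89 at 28 °C. In roots at 3 h, 32 of the 133 (24.1%) were lower and 11 (8.27%) higher, with a median of -0.11. Of 13 peroxidases past that limit, 4 were lower there and 0 higher, with a median of -0.29. In roots at 24 h, 54 of the 150 (36%) were lower and 27 (18%) higher, with a median of -0.08. Of the 15 peroxidases, 2 were lower there and 3 higher, with a median of 0.2. In hypocotyls at 24 h the 3 root hair markers had mean values per array of 4.52 to 4.60 at 20 °C. At 28 °C these were 4.02 to 4.62. None of the 3 was called there by limma, with 0 at an unadjusted p under 0.05, and their median difference was -0.27. EXPA7 with -0.27 and EXPA18 with -0.29 are themselves among the 150 genes. For the root markers PYK10 and LBD16 the median difference was -0.12, and 0 were called. The light-harvesting gene LHCB4.3 rose by 0.54 (SE 0.11) in the same comparison, and the mean over both green tissue markers was 9.45 to 9.62 at 20 °C and 9.90 to 10.01 at 28 °C. This rise was not particular to hypocotyls at 24 h, where the median change of the 2 markers was 0.44. It was 0.76 in hypocotyls at 3 h, and at 3 and 24 h it was 0.54 and 0.26 in cotyledons and 0.37 and 0.31 in roots. The amount of root tissue carried into the dissected hypocotyls was not measured, and the part of root or green tissue in the peroxidase falls was not tested. In whole organs, fewer cells of a type and less RNA per cell cannot be told apart.

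**Figure D5:**
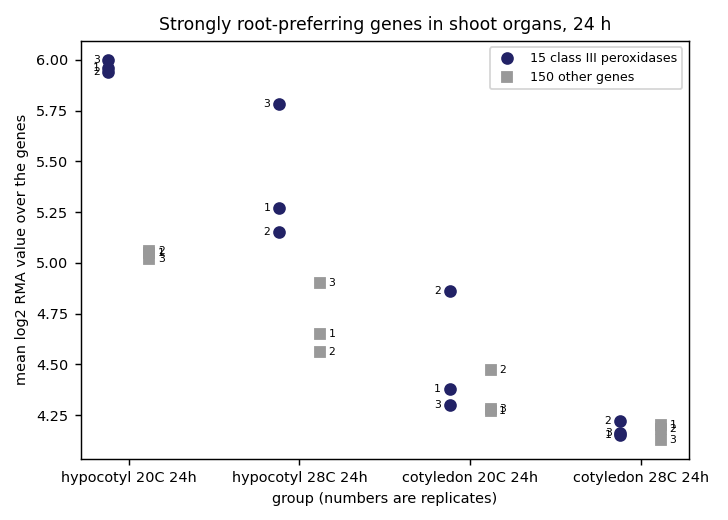
Mean log2 value over 15 strongly root-preferring peroxidases (circles) and over 150 other strongly root-preferring genes (squares) on each array of hypocotyls and cotyledons at 24 h, numbered by replicate. In hypocotyls both are lower on the 3 arrays at 28 °C, and in cotyledons replicate 2 at 20 °C stands above the other arrays.

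In cotyledons at 24 h the lower calls mixed root-preferring genes with others. The largest was AT5G64100, with values of 6.12, 7.35 and 6.09 at 20 °C and 5.20, 5.62 and 4.63 at 28 °C, a difference of -1.37 (SE 0.27, adjusted p = 0.000214). AT5G17820 with -1.01 (SE 0.31), AT2G18980 with -0.80 (SE 0.23), AT4G30170 with -0.76 (SE 0.25) and AT4G26010 with -0.74 (SE 0.28) were no longer called without replicate 2 at 20 °C. For those 4 genes the differences without it were -0.41, -0.48, -0.39 and -0.35. AT2G37130 differed by -0.96 (SE 0.23, adjusted p = 0.00165). On the same arrays the mean over the 150 other root genes was 4.27, 4.47 and 4.28 at 20 °C and 4.2, 4.18 and 4.13 at 28 °C, with replicate 2 at 20 °C the highest there too. Of those 150 genes, 24 (16%) were lower and 6 (4%) higher in cotyledons at 24 h, where 13.4% of all genes were lower and 15% higher. The lower share was thus near that of all genes, while the higher share was below it. The median over the 150 genes was -0.19, beside -0.24 for the 15 peroxidases past the same limit and -0.02 for all genes. At an unadjusted p under 0.05, 39 of the 150 were lower and 6 higher. The part of these genes in the result was not tested.

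PRXR1, one of the 3 hypocotyl-preferring genes, also fell in cotyledons. Its values at 3 h were 12.14, 12.11 and 12.20 at 20 °C and 11.50, 11.85 and 11.81 at 28 °C, and at 24 h they were 11.73, 11.64 and 11.52 against 11.19, 11.20 and 11.24. The groups were apart at both hours, with differences of -0.43 (SE 0.09, adjusted p = 0.000222) and -0.42 (SE 0.09, adjusted p = 0.000284). In roots at 3 h PRXR1 differed by -0.31 (SE 0.10, adjusted p = 0.0317). AT1G49570 fell by 0.57 in cotyledons at 24 h (SE 0.13, adjusted p = 0.000737).

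At 3 h in cotyledons the hypocotyl gene AT5G58390 rose. Its values were 4.41, 5.27 and 4.99 at 20 °C and 5.54, 6.66 and 6.15 at 28 °C, a difference of 1.23 (SE 0.25, adjusted p = 0.000322). In hypocotyls at 3 h, where the values were 9.89 to 10.05 at 28 °C, the gene was not called, and the 2 changes differed by -1.48 (SE 0.35, adjusted p = 0.0139). AT5G39580 differed by -0.62 (SE 0.16, adjusted p = 0.00385). AT5G64100 differed by -0.91 (SE 0.27, adjusted p = 0.0142), with overlapping arrays, and was not called without replicate 2 at 20 °C. At 24 h the AT5G58390 difference in cotyledons was 0.57, with overlapping arrays, and was not called.

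Warm roots at 24 h had peroxidases moving both ways. The largest change was the fall of AT1G49570, with values of 6.16, 6.37 and 6.55 at 20 °C and 4.47, 4.37 and 4.25 at 28 °C. The groups were far apart, with a difference of -2.0 (SE 0.13, adjusted p = 1.86e-13). At 3 h its root values were 6.19, 6.30 and 6.63 at 20 °C and 5.94 and 6.28 at 28 °C, which overlap, and the difference of -0.27 was not called. The change at 24 h exceeded that at 3 h by -1.73 (SE 0.19, adjusted p = 4.4e-07). At 24 h and 28 °C the root values lay at 4.25 to 4.47, in the range of the hypocotyl and cotyledon arrays of this gene, 3.92 to 4.98.

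AT4G36430 was the other large fall beside Prx37 and AT4G08780. Its root values at 24 h were 8.55, 8.49 and 8.36 at 20 °C and 7.58, 7.27 and 7.39 at 28 °C, a difference of -1.05 (SE 0.13, adjusted p = 1.71e-07). At 3 h it differed by -0.48 (SE 0.14, adjusted p = 0.0225), a call lost without replicate 2 at 28 °C, when the difference was -0.25, and also when replicate 3 at 20 °C was left out. AT5G15180 fell by 0.60 (SE 0.11), AT3G28200 by 0.54 (SE 0.13), AT5G14130 by 0.48 (SE 0.14) and PRX25 (AT2G41480) by 0.43 (SE 0.11).

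Among the 9 peroxidases that rose in roots at 24 h, not all of them root-preferring, the largest changes were in AT3G49960 and AT1G34510. AT3G49960 had root values of 5.90, 6.29 and 6.45 at 20 °C and 6.99, 7.47 and 7.39 at 28 °C, a difference of 1.07 (SE 0.16, adjusted p = 9.05e-06). AT1G34510 had 7.54, 7.84 and 7.77 at 20 °C and 8.66, 9.03 and 8.61 at 28 °C, a difference of 1.05 (SE 0.16, adjusted p = 1.13e-05). Neither gene overlapped between temperatures, and both had values of 4.04 or less on all hypocotyl and cotyledon arrays. After AT2G22420 with 0.97 came AT4G11290 with 0.80 (SE 0.11), AT2G35380 with 0.69 (SE 0.16), AT3G21770 with 0.67 (SE 0.12), AT1G44970 with 0.53 (SE 0.14), AT1G68850 with 0.31 (SE 0.10) and AT5G40150 with 0.28 (SE 0.09). In these warm roots the root hair gene EXPA7 rose by 0.46 (SE 0.15) and XTH26 fell by 1.19 (SE 0.13), while the mean over the 3 root hair markers was 7.34 to 7.71 at 20 °C and 7.26 to 7.51 at 28 °C. The root marker PYK10 rose by 0.41 (SE 0.09), and the part of these markers' cells in the peroxidase changes was not tested.

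In roots at 3 h the falls beside Prx37 and AT4G08780 were smaller or rested on the 2 arrays at 28 °C. AT3G01190 had values of 11.89, 11.76 and 11.89 at 20 °C and 10.95 and 11.12 at 28 °C, a difference of -0.81 (SE 0.22, adjusted p = 0.0126), and was not called without either array at 28 °C. AT5G15180 fell by 0.66 (SE 0.13, adjusted p = 0.000423). AT1G71695, the shoot gene, had 6.38, 6.66 and 6.31 at 20 °C and 5.62 and 6.13 at 28 °C, a difference of -0.57 (SE 0.11, adjusted p = 0.000444), which was -0.32 and not called without replicate 1 at 28 °C. AT1G68850 differed by -0.35 (SE 0.11). PRX25 rose in the same comparison, from 7.16, 7.22 and 7.18 at 20 °C to 7.73 and 7.79 at 28 °C, a difference of 0.58 (SE 0.13, adjusted p = 0.00176).

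Few peroxidases changed in hypocotyls at 3 h. AT4G11290 had values of 7.63, 7.62 and 7.53 at 20 °C and 6.90, 6.78 and 6.92 at 28 °C, a difference of -0.73 (SE 0.11, adjusted p = 2.17e-05), with no overlap. PRX72 differed by -0.34 (SE 0.11, adjusted p = 0.0437), a call lost without any 1 of its 6 arrays. AT3G03670 differed by 0.37 (SE 0.10, adjusted p = 0.0116), a call that needed both replicate 3 at 20 °C and replicate 1 at 28 °C.

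Some genes were called in opposite directions in different organs or hours, namely AT1G44970, AT1G68850, PRX25, AT3G03670, AT4G11290 and AT5G40150. AT4G11290 fell in hypocotyls at both hours and rose in roots at 24 h, and the root change exceeded the hypocotyl change at 24 h by 1.42 (SE 0.16, adjusted p = 1.98e-07) and at 3 h by 0.87 (SE 0.17, adjusted p = 0.00136). PRX25 rose in roots at 3 h and fell there at 24 h, with the change at 24 h below that at 3 h by -1.01 (SE 0.17, adjusted p = 0.000346). AT1G68850 fell in roots at 3 h and rose there at 24 h, a difference of 0.66 (SE 0.15, adjusted p = 0.00775). AT1G44970 fell in hypocotyls and rose in roots at 24 h, a difference of 1.07 (SE 0.20, adjusted p = 0.000499). For AT5G40150, with falls in cotyledons of -0.24 (SE 0.09) and a rise in roots of 0.28 (SE 0.09) at 24 h, the changes differed by 0.52 (SE 0.12, adjusted p = 0.00221). The AT3G03670 calls were -0.32 (SE 0.10) in cotyledons at 24 h and 0.37 in hypocotyls at 3 h, and that difference was not tested.

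The differences between warm changes were tested directly for all genes. At 24 h the root and hypocotyl changes differed for 12 of the 44 peroxidases, 10 with the higher change in roots, where 7.48% of all genes differed and 3.68% had the higher change in roots. The root and cotyledon changes differed for 19, 12 of them with the higher change in roots, where 20.1% of all genes differed and 9.01% had the higher change in roots. The hypocotyl and cotyledon changes differed for 7, of which 6 had the lower change in hypocotyls, where 12.1% of all genes differed and 7.02% had the lower change in hypocotyls. That count of 7 was 2 or 3 without hypocotyl replicate 1 or 2 at 28 °C, and 4 without hypocotyl replicate 2 at 20 °C or cotyledon replicate 3 at 28 °C. At 3 h the counts were 4 for root and hypocotyl, 6 for root and cotyledon and 2 for hypocotyl and cotyledon, where 5.3%, 11.5% and 3.35% of all genes differed. The count of 4 was 1 or 2 without root replicate 1 or 2 at 28 °C and 2 without hypocotyl replicate 3 at 28 °C, and the count of 2 was 1 without cotyledon replicate 1 at 20 °C or replicate 2 at 28 °C. Between 24 and 3 h the change differed for 7 peroxidases in roots, 1 in hypocotyls and 0 in cotyledons by the limma test, where 3.35%, 0.659% and 16.4% of all genes differed. The root count was 4 without replicate 2 at 28 °C of either hour, or without replicate 1 or 2 at 20 °C and 24 h. The hypocotyl count ranged from 0 to 3 without 1 array. In cotyledons 8 peroxidases had an unadjusted p under 0.05, all with the lower change at 24 h. These tests share arrays with each other and with the warm comparisons, so they are not independent of them.

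Other genes that act with these enzymes were measured in small part. The NADPH oxidase genes RBOHE, RBOHG and RBOHI, which make superoxide at the plasma membrane, were the measured 3 of 17 listed superoxide and peroxide producers. All 3 were higher in roots than in both shoot organs at 20 °C. In roots at 3 h RBOHE fell by 0.66 (SE 0.17, adjusted p = 0.00852) and RBOHG by 0.56 (SE 0.16, adjusted p = 0.0187). Neither they nor RBOHI were called in the other 5 warm comparisons, where 1 of the 3 in hypocotyls at 24 h and 2 in roots at 24 h had an unadjusted p under 0.05. LAC16, the measured 1 of 17 listed laccases, which also oxidise lignin precursors, fell by 0.95 in roots at 3 h (SE 0.14, adjusted p = 7.83e-06).

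Extensins, wall proteins that peroxidases cross-link, were measured for 7 of 15 listed genes. All 7 were higher in roots than in hypocotyls, and 6 were higher and 1 lower in roots than in cotyledons. In hypocotyls at 24 h 1 of the 7 fell, AT3G28550 with -0.45 (SE 0.14, adjusted p = 0.0298). In roots at 24 h 1 rose, AT4G08410 with 0.49 (SE 0.16, adjusted p = 0.0334). In the other 4 warm comparisons none of the 7 was called by the limma test, and 1 gene had an unadjusted p under 0.05 in hypocotyls and 1 in roots at 3 h. HCT and CCR2, the measured 2 of 18 listed genes of lignin precursor synthesis, rose in cotyledons at 24 h by 0.61 (SE 0.08) and 0.33 (SE 0.12) and were not called in the other warm comparisons.

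The chloroplast ascorbate peroxidases TAPX and SAPX, which belong to another peroxidase class and remove hydrogen peroxide, were the measured 2 of 10 listed ascorbate peroxidases and catalases. Both were lower in cotyledons at 24 h, TAPX by -0.70 (SE 0.11) and SAPX by -0.37 (SE 0.09). SAPX was also lower in cotyledons at 3 h and in hypocotyls at both hours, by -0.32 to -0.51. The endodermal receptor gene SGN3, the measured 1 of 13 endodermis and suberin markers, rose in hypocotyls and cotyledons at 3 h by 0.53 (SE 0.14) and 0.76 (SE 0.14). The xylan synthesis gene IRX10, the measured 1 of 11 xylem markers, rose by 0.67 (SE 0.12) in cotyledons and 0.34 (SE 0.12) in roots at 24 h.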

How the data were processed

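Total RNA of pooled dissected organs was labelled with biotin and hybridised to Affymetrix arrays, per the labels. The deposited table holds log2 values of 22746 probe sets on 35 arrays, which the authors made with RMA, per the submitters' processing notes. Those notes also name limma, and versions are not given in the sources used here, nor is whether all arrays were normalised together or whether batches exist.

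Of the probe sets, 13513 name 1 gene, 503 name several and 8730 are not listed in the annotation table used. Taking the probe set with the highest mean gave 13355 genes, of which 13333 matched RefSeq genes of TAIR10.1, the source of gene names. Peroxidases unnamed there are given by locus code. Limma 3.58.1 (R 4.3.3) fitted 12 group means over all arrays with the default moderated variance, and 18 comparisons were each adjusted by Benjamini-Hochberg. The procedure was tested on simulated data.

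The members, gene lists and alternatives were chosen with earlier results of these data known. Genes were named by the size of called changes in each comparison, by calls in 4 or more warm comparisons or in both directions, and for some peroxidases whatever their values. The planned naming of the brightest genes per organ was dropped because values of different probe sets cannot be set against each other. Planned searches of promoter motifs and of protein identity were not run. RNA pools of a group may share harvesting sessions, so p-values measure only the spread between these samples. The number of arrays limits the precision, with a median SE of 0.105 for a warm change and 0.117 in roots at 3 h. Of 7 measured reference genes among 13 listed, used for 1 alternative scaling, 1 was lower in cotyledons at 24 h, and 1 was higher and 1 lower in roots at 24 h. At 20 °C, 6 of the 7 were higher and 1 lower in roots than in cotyledons, with a median difference of 0.46. Against hypocotyls 6 were higher in roots and 0 lower, with a median of 0.34. Further alternatives were scaling by array medians, filters on dim genes and on probe sets, fewer arrays in the fit, a trended robust variance, a replicate block and leaving out each array.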

Additional observations from a re-analysis of the deposited data

Results flagged for a closer look

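The values below are differences between 2 log2 warm changes (28 minus 20 °C) that passed the limma test of the difference at an adjusted p under 0.05, listed for a closer look because the same warm shift acted unequally in 2 organs or 2 hours. No explanation was tested.

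In roots, the change at 24 h minus that at 3 h was -1.73 for AT1G49570, -1.01 for PRX25 (AT2G41480), 1.05 for AT1G34510 and 0.89 for AT2G35380. The AT2G35380 call was lost without any 1 of 9 root arrays, and that of AT1G34510 without replicate 2 at 28 °C and 3 h. In hypocotyls the same difference was -1.43 for AT2G37130, a call lost without any 1 of 6 arrays.

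At 24 h, the root minus hypocotyl difference was -2.03 for AT1G49570, -0.53 for AT2G24800, 1.51 for AT3G49960 and 1.42 for AT4G11290. AT2G24800 had a highest group mean of only 3.57 and was called in no warm comparison, so its difference is poorly measured. The root minus cotyledon difference was -1.42 for AT1G49570, -1.11 for AT4G33420, 1.28 for AT5G17820 and 1.73 for AT5G64100. The AT5G17820 difference was 0.68 and not called without cotyledon replicate 2 at 20 °C. The hypocotyl minus cotyledon difference was -1.01 for AT3G01190, -0.65 for AT1G44970 and 0.61 for AT1G49570, and each of these 3 calls was lost without at least 1 array.

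At 3 h, the root minus hypocotyl difference was -0.66 for AT1G71695, -0.63 for AT5G15180 and 0.87 for AT4G11290. The AT1G71695 difference was -0.40 and not called without root replicate 1 at 28 °C, and the AT5G15180 call was lost without any 1 of 5 arrays. The root minus cotyledon difference was -0.97 for Prx37 (AT4G08770), -0.78 for AT5G15180 and 0.67 for PRX25. The hypocotyl minus cotyledon difference was -1.48 for AT5G58390 and -0.84 for AT4G11290, and the AT5G58390 call was lost without either cotyledon replicate 1 at 20 °C or replicate 2 at 28 °C.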

How the results depend on the processing

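Over the genes named above, 1725 checks under other settings kept direction and call, 95 kept direction and lost the call, and none changed sign. The checked genes and comparisons were picked for large called changes in these same data, and many were large organ differences. A kept direction was therefore nearly fixed beforehand, and the pooled counts do not show how often warm calls were lost. Leaving out each array in turn gave these ranges of peroxidases called at 28 against 20 °C: 5 to 7 in hypocotyls, 4 to 7 in cotyledons and 6 to 10 in roots at 3 h, and 12 to 21, 8 to 16 and 14 to 16 at 24 h. The ranges were 36 to 37 for root against either shoot organ and 30 to 33 for hypocotyl against cotyledon. For differences of warm changes they were 1 to 3 (hypocotyl and cotyledon), 4 to 6 (root and cotyledon) and 1 to 4 (root and hypocotyl) at 3 h, then 2 to 7, 14 to 21 and 11 to 17 at 24 h in that order. Between hours they were 0 to 3 in hypocotyls, 0 to 2 in cotyledons and 4 to 6 in roots.

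The cotyledon count at 24 h, 14, was 8 when the fit held the 2 compared groups alone and 9 (2 higher, 7 lower) with reference-gene centring. The 1 hypocotyl call between hours became 0 with a trended robust variance. The 0 cotyledon calls between hours became 1 without dim genes, 1 with reference-gene centring and 2 with array-median centring. The cause of these shifts was not tested.

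Most reference genes were themselves called higher in roots than in either shoot organ. Reference-gene centring moved the median of all genes by -0.44 for root minus cotyledon and -0.41 for root minus hypocotyl, and the splits there became 28 higher and 13 lower. It gave 4 higher and 3 lower in hypocotyls, and 3 higher and 6 lower in roots, at 3 h. Array-median centring gave 23 higher and 17 lower for hypocotyl minus cotyledon, with the median of all genes moved by -0.21, and 2 higher and 4 lower for the hypocotyl and cotyledon changes at 24 h. With group means subtracted from the values, same-numbered replicates of the temperatures correlated at -0.197 to 0.155. These correlations were all positive in cotyledons at 24 h and roots at 3 h. They were all negative in hypocotyls at 3 h and roots at 24 h. Groups of 2 or 3 arrays are too small to decide whether the numbers pair samples. The highest, 0.155, belongs to cotyledon replicate 3 at 3 h, whose array at 28 °C is numbered 3 in its title but 4 in its description, and that number was taken from the title. A fit with the replicate block moved no count by over 1.5 times; the AT4G26010 difference in cotyledons at 24 h, -0.74, was not called in it. Low signal limits the 13 genes without a group mean of 6 or more.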
